A study of Mus musculus with 2 samples.

Results

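The mouse carries 39 Hox genes in 4 complexes, named HoxA, HoxB, HoxC and HoxD, and they are described here. They were chosen by gene symbol alone from the 31053 genes of the deposited tables: 11 belong to HoxA, 10 to HoxB, 9 to HoxC and 9 to HoxD. Their RNA had been measured by single-cell sequencing in C57BL/6 mouse embryos at embryonic days E10.5 and E11.5, in a series on the precursors of haematopoietic stem cells. There was 1 library at each stage, and in both of them the dorsal aorta, the tissue around it and the fetal liver were pooled, so no label tells which site a cell came from. No genotype beyond the strain and no treatment is given for either stage, and the number of embryos in a pool is not given in the sources used here.

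Hox genes encode homeodomain transcription factors that tell cells where they lie along the axis from head to tail. Within a complex they stand in a row and are numbered by paralogue group, that is, by their likeness to the genes at the same place in the other complexes. Low-numbered genes are switched on early and reach far towards the head, and high-numbered genes follow later and stay nearer to the tail, so the set of Hox genes that a trunk cell expresses reflects where along the axis it arose. Several HoxA and HoxB genes, Hoxa9 among them, are also known for their part in the self-renewal of blood stem and progenitor cells.

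In the GRCm38 genome HoxA spans 105 kb of chromosome 6 (52155590 to 52260880), HoxB 174 kb of chromosome 11 (96194316 to 96368256), HoxC 116 kb of chromosome 15 (102921103 to 103036852) and HoxD 96.8 kb of chromosome 2 (74668310 to 74765142). These spans run from the first to the last member in the GENCODE annotation. The exons of 6 members overlap another gene on the same strand, among them Hoxc5 with Hoxc10 and Hoxd3 with Hoxd4, and those of 9 members overlap a noncoding RNA on the opposite strand. Whether the counting used the strand, and how it treated reads in shared exons, is not given in the sources used here, so the values of such pairs are less certain.

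Of 10996 cell barcodes at E10.5, with 151474708 unique molecular identifiers (UMIs, tags that mark single captured molecules), 8705 passed the filters, with a median of 15515 UMIs. Of 12289 barcodes at E11.5, with 159619785 UMIs, 9756 passed, with a median of 13332. Levels are counts per 1000000 UMIs (CPM), taken without the haemoglobin and mitochondrial genes. The assay reads the 3′ end of each RNA, so CPM does not grow with the length of the gene. Clustering both libraries without the Hox genes gave 38 cell clusters, of which 21 were named by likeness to marker genes. Of the 38, 24 took at least 90% of their cells from 1 library, so a cluster found at 1 stage may reflect the library rather than a cell type. The libraries shared 37 barcode sequences, and 24 after filtering. Since each stage was sequenced once, there is no replicate and no test between stages, and every 95% interval below covers counting error only.

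The first comparison set the Hox genes of all cells at E10.5 beside those at E11.5. The summed level of all 39 members, called the Hox total here, was lower at E11.5. It stood at 1185 CPM at E10.5 (95% CI 1179 to 1191) and at 822 CPM at E11.5 (817 to 826), a log2 ratio of -0.53 (-0.54 to -0.52). The largest difference was that of HoxB, which went from 473 to 178 CPM (log2 ratio -1.41, -1.43 to -1.39) and from 39.9% to 21.6% of all Hox UMIs. HoxA was lower by less, at 319 and 237 CPM (-0.43). HoxC stood at 358 and 372 CPM and HoxD at 34.7 and 35.2 CPM, log2 ratios of 0.05 and 0.02. Both HoxC and HoxD were below 0 when the median gene was set to 0 (-0.11 and -0.14) and when barcodes were kept only up to 5% mitochondrial UMIs, so the sign of neither was the same under every scaling. HoxC made up 45.2% of the Hox UMIs at E11.5, against 30.2% at E10.5, and was the most abundant complex there.

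Ordered by paralogue number, the log2 ratio mostly climbed from group 1 to group 10. Paralogue group 1, the genes at the 3′ end of the complexes, had a log2 ratio of -2.17 (10.9 CPM at E10.5, 2.43 at E11.5). The ratio was -1.37 for group 2, -0.86 for group 3, -1.10 for group 4, -0.79 for group 5, -0.57 for group 6 and -0.38 for group 7. Group 8 had -0.07, with the sign turned in the thinned cells (0.20) and in the mean over cells (0.11), and group 9 had 0.22. Group 10 stood far above the others, at 3.71 (0.898 CPM at E10.5, 11.7 at E11.5). The order was not perfect, since groups 3 and 4 were reversed, but each group from 5 to 10 lay above the one before it. Group 11 was again lower, at -1.81 (-3.42 to -0.44), from 20 and 6 UMIs. Paralogues 1 to 5 made up 49.8% of the Hox UMIs at the earlier and 35.5% at the later stage, paralogues 6 to 8 made up 42.2% and 49.8%, and paralogues 9 to 13 made up 8.03% (7.90 to 8.16) and 14.8% (14.56 to 14.96). The mean paralogue number of a Hox UMI was 5.63 and 6.35.

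These sums hold all cell types together, and the mix of cells differed between the libraries. The sclerotome-like cluster 1 went from 1478 cells to 8, and the erythroid-like cluster 3 from 2 cells to 942. In such a sum, fewer cells of a type and less RNA per cell cannot be told apart. The median of all 18086 genes with at least 20 UMIs in both libraries together had a log2 ratio of 0.16, so most genes read slightly higher at E11.5, and Hox ratios are best read against that value.

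**Figure D1:**
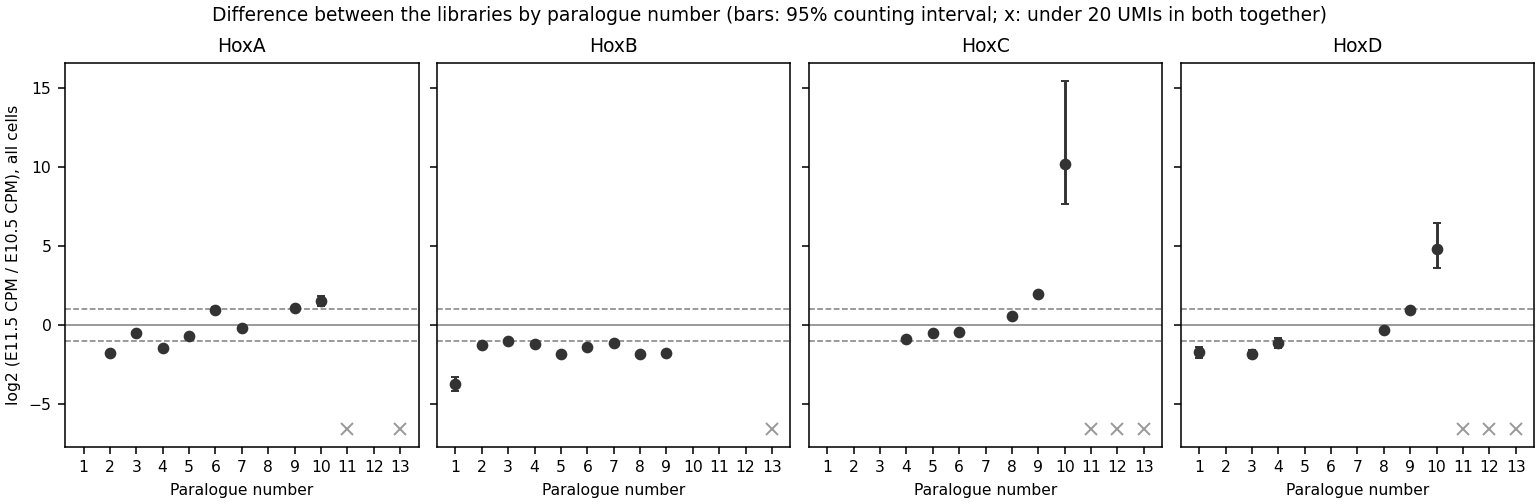
Log2 ratio of E11.5 over E10.5 CPM in all cells (y axis) for Hox genes against their paralogue number (x axis), with 1 panel for each complex, bars for the 95% counting interval, dashed lines at 2-fold, and crosses for members with under 20 UMIs in both libraries together. In HoxA, HoxC and HoxD the points climb broadly from left to right, to 10.2 for Hoxc10, while all 9 measured HoxB genes lie below -1.

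Of the 39 members, 30 had at least 20 UMIs in both libraries together. Among them 5 were at least 2-fold higher at E11.5, where 16.1% of all genes were. Another 15 were at least 2-fold lower, where 4.51% of all genes were. The count of higher members was thus close to the share of all genes, and that of lower members lay above it. The members' median log2 ratio was -0.95, and 8 of the 30 were above 0. With the median of all genes set to 0 the split became 4 higher and 16 lower. The share of all genes was not computed for that setting.

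All 9 measured HoxB genes, Hoxb1 to Hoxb9, were among the lower ones, whatever their paralogue number. Hoxb1, which helps to specify the hindbrain, differed most: its level was 3.90 CPM at E10.5 and 0.300 CPM at E11.5 (543 and 44 UMIs, log2 ratio -3.70). Hoxb8 was 82.9 and 23.4 CPM, Hoxb5 43.4 and 12.4 CPM, and Hoxb9 59.2 and 17.2 CPM, which is 3.55-, 3.50- and 3.44-fold lower. The smallest difference in the complex was that of Hoxb3, 43.2 and 21.3 CPM. From Hoxb2 (log2 ratio -1.28) to Hoxb9 (-1.78) the ratios did not climb with the paralogue number.

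The low-numbered genes of other complexes that were at least 2-fold lower included Hoxa2 and Hoxa4 of HoxA and Hoxd1, Hoxd3 and Hoxd4 of HoxD. Hoxa4 was the most abundant of them, at 49.5 and 18.5 CPM. The remaining members of groups 3 to 5 were lower by less than 2-fold: Hoxa3 (log2 ratio -0.49), Hoxa5 (-0.66), Hoxc4 (-0.88) and Hoxc5 (-0.49).

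Hoxa7, Hoxc6 and Hoxc8, middle genes of their complexes, had the highest levels at E10.5. Hoxa7 stood at 107 and 95.8 CPM (log2 ratio -0.16), and its ratio was above 0 in the thinned cells (0.11) and as a mean over cells (0.07). Hoxc6, at 107 and 77.6 CPM, had a ratio of -0.46. Hoxc8, which patterns the thoracic skeleton, was the most abundant Hox gene at E11.5, with 106 and 159 CPM (0.59, 0.56 to 0.62). Hoxa6, a weakly detected neighbour of Hoxa7, had 3.28 and 6.42 CPM (0.97), and Hoxd8 17.1 and 13.5 CPM (-0.33).

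The 5 members that were at least 2-fold higher all lay in groups 9 and 10, but the list depended on the setting. Hoxa6 also passed as a mean over cells and in the thinned cells. Hoxa9 did not pass with at most 5% mitochondrial UMIs or with the median gene set to 0. Hoxa9 had 14.4 CPM at E10.5 and 30.4 CPM at E11.5, and Hoxc9 had 11.4 and 44.0 CPM, 3.87-fold higher. Hoxd9, at 9.18 and 17.8 CPM, missed the threshold with a log2 ratio of 0.96. Hoxa10 was scarce at both stages, at 0.855 and 2.43 CPM, yet 2.85-fold higher at E11.5. Hoxc10, a gene of the lumbar level, gave 1 UMI at E10.5 and 1215 UMIs at E11.5, when its level was 8.29 CPM (log2 ratio 10.2, 7.69 to 15.5). Hoxd10 gave 5 and 151 UMIs (4.84, 3.59 to 6.48). Hoxc10 and Hoxd10 were thus at 1 and 5 UMIs in the earlier library and well above that in the later one. Hoxc10 shares exons with Hoxc5 in the annotation, and how such reads were counted is not given in the sources used here.

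The most 5′ genes were barely seen. Hoxb13, Hoxc11, Hoxc12 and Hoxd12 gave no UMI in either library, which allows a level of up to 0.0216 CPM at E10.5 and 0.0205 CPM at E11.5 for each. Hoxa13 gave 2 UMIs at each stage, Hoxc13 gave 0 and 1, Hoxd11 gave 1 and 6, and Hoxd13 gave 1 and 5. Hoxa11 gave 19 UMIs at E10.5, in 3 cells, and 0 at E11.5.

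Of the 39 members, 22 had a promoter window in the RefSeq table for GRCm38.p6, which holds 250 bases before and 50 after a gene's start, with 24 windows in all. Windows of 4 members are printed to set genes that were lower at E11.5 (Hoxb1 and Hoxb8) beside genes that were higher or nearly 2-fold higher (Hoxa9 and Hoxd9). Hoxb1 lies at chr11:96365508-96365807 (+ strand), Hoxb8 at chr11:96281655-96281954 (+), Hoxa9 at chr6:52227321-52227620 (- strand) and Hoxd9 at chr2:74697513-74697812 (+). Capitals mark matches, on either strand, to TGATNNAT (a site that Pbx and Hox proteins bind together), TTTATG (a Cdx site) and TATAAA (the TATA box), and the lines read 5′ to 3′.
Hoxb1: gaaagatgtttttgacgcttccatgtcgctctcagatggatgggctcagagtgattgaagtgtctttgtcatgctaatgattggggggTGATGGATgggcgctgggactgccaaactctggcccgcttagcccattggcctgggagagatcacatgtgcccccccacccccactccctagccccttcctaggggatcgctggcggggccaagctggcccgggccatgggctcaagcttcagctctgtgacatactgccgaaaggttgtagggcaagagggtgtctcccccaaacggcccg
Hoxb8: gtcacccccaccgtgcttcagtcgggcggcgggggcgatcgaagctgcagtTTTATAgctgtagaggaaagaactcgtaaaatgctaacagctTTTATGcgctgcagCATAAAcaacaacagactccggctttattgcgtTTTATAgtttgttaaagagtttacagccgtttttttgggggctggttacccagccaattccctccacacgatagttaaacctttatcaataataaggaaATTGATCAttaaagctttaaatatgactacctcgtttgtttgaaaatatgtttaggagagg
Hoxa9: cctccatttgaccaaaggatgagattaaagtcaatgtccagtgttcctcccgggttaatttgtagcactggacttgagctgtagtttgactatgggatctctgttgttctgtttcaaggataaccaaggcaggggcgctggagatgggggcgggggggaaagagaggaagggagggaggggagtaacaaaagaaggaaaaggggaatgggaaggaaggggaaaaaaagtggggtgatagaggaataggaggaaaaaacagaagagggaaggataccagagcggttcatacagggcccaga
Hoxd9: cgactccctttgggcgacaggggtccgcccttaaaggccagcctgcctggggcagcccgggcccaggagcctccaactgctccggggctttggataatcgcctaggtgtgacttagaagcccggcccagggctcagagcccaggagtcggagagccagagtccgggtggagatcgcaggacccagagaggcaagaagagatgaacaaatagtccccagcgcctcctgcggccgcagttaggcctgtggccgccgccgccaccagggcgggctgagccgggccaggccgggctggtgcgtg

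The letters TGATNNAT were found in 4 of the 24 member windows (16.7%; Hoxa2, Hoxb1, Hoxb8 and Hoxd11) and in 8.85% of all 32841 windows of the table. TTTATG was found in 5 (20.8%; Hoxa7, Hoxb8, Hoxd3, Hoxd4 and Hoxd11) against 11.9% of all. The letters TATAAA were found in 4 member windows (16.7%) against 13.6% of all. In the Hoxb8 window TATAAA overlaps no TTTATG match. That window holds matches to all 3 motifs marked by capitals, and those of Hoxa9 and Hoxd9 hold none of these. The 4 printed windows do not stand for their groups. Among other members with a window that were at least 2-fold lower, Hoxa2, Hoxd3 and Hoxd4 had a match. Hoxb4 and Hoxd1 had none. Among those at least 2-fold higher, a window of Hoxa10 had TATAAA and that of Hoxd10 had no match. CCAAT was in 15 member windows (62.5%) against 37.4% of all. The member windows had a median of 14.5 CpG dinucleotides, with a range of 4 to 45, against a median of 7 over all windows. A match is only a run of letters, and the absence of a match in a window of 300 bases says nothing about a factor.

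The next comparison set cell clusters side by side within a stage. Hox totals spanned a wide range. Neuron-like, nephric epithelium-like and several unnamed clusters stood near the top, and hepatoblast-like, erythroid-like and macrophage-like clusters near the bottom. The unnamed cluster 22, led by Kctd14, Ifitm1 and Lgals7, was also low at E11.5, with 258 CPM. At E10.5, in 21 clusters with at least 50 cells, the neuron-like cluster 33 was highest with 3242 CPM and the hepatoblast-like cluster 19 lowest with 177 CPM (log2 ratio 4.198). Between them, the unnamed cluster 25, led by Fabp7, Shh and Sox2, had 2220 CPM, and the nephric epithelium-like cluster 10 had 1727 CPM. At E11.5, in 24 clusters, cluster 10 was highest with 1825 CPM and cluster 19 again lowest with 61.3 CPM (4.90). The unnamed clusters 4, 7, 2 and 17, whose leading genes included Igfbp3 and Itga8 (4 and 17) or Crabp1 and Efemp1 (7 and 2), followed with 1617, 1536, 1491 and 1462 CPM. Clusters 33 and 25 held 0 cells of the E11.5 library, so the clusters with the highest totals at E10.5 have no counterpart there.

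**Figure D2:**
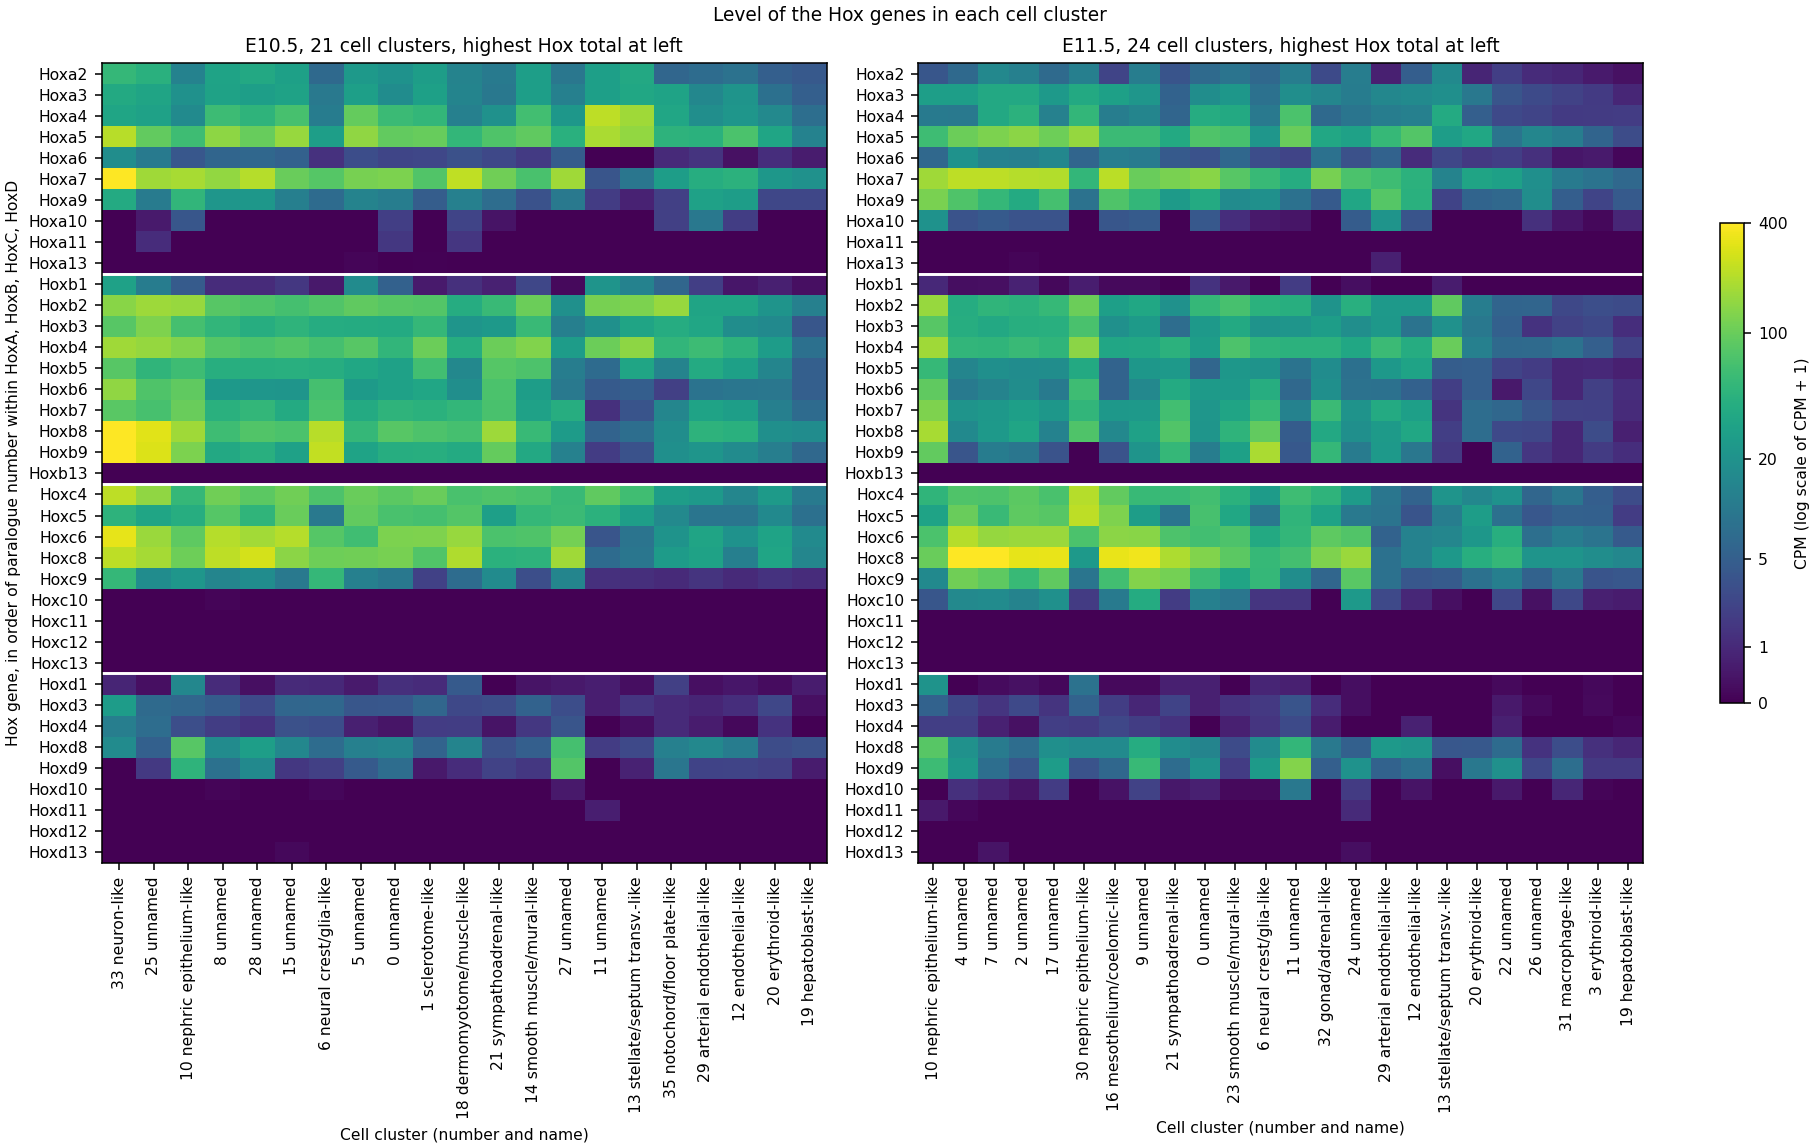
Level of the Hox genes (rows, grouped by complex and ordered by paralogue number) in each cell cluster with at least 50 cells (columns, highest Hox total at left) at E10.5 and E11.5, as colour on a log scale of CPM + 1. Hoxa7, Hoxc6 and Hoxc8 are bright across most columns, the rows of groups 11 to 13 are dark, and the Hoxc10 row is lit at E11.5 and dark at E10.5.

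Cell clusters differed in their leading members. The neuron-like cluster 33 and the unnamed cluster 25 led with Hoxb8 and Hoxb9. In cluster 33 Hoxb9 stood at 397 CPM, Hoxb8 at 392 CPM and Hoxa7 at 391 CPM. In cluster 25 Hoxb8 had 302 CPM and Hoxb9 288 CPM. The neural crest or glia-like cluster 6 took 62.0% and 58.9% of its Hox UMIs from HoxB at the 2 stages, led by Hoxb9 with 230 and 186 CPM. Hoxb9 thus stayed the leading Hox gene of these cells at both stages, while in all cells together it was 3.44-fold lower.

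Hoxc6 and Hoxc8 stood high in several mesenchymal clusters. At E10.5 Hoxc6 led the sclerotome-like cluster 1 with 124 CPM, although HoxB gave 42.0% of its Hox UMIs and HoxC 31.6%, and Hoxc8 stood at 195 CPM in the dermomyotome or muscle-like cluster 18, beside 224 CPM of Hoxa7. At E11.5 Hoxc8 was the leading member of the unnamed clusters 2, 4, 7, 9 and 17 and of the mesothelium or coelomic epithelium-like cluster 16, at 322 to 394 CPM in these 6 clusters. Cluster 9, led by Sfrp2, Postn and Ptn, also held the highest levels of Hoxc9 (131 CPM) and of Hoxc10 (39.1 CPM). The next highest level of Hoxc10 was that of cluster 24, 24.4 CPM, and cluster 17 followed with 19.3 CPM.

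Clusters 10 and 30, both named nephric epithelium-like, had separate Hox patterns. Cluster 10 carried 8 of the 9 nephric markers, with Wfdc2 and Pax2 among its leading genes. Cluster 30 carried 4 of the 9, and its leading genes included Rmst, Dach2 and Egfl6. Whether both are nephric cells was not tested. Cluster 10 led with Hoxa7 (183 CPM), Hoxb8 (169 CPM) and Hoxb2 (159 CPM) at E10.5 and was the cluster with the highest Hoxd1, 15.1 CPM at E10.5 and 20.6 CPM at E11.5. Cluster 30, found at E11.5 and also named nephric epithelium-like, led with Hoxc5 (221 CPM), Hoxc4 (204 CPM) and Hoxa5 (156 CPM). It took 73.3% of its Hox UMIs from paralogues 1 to 5 and 1.63% from paralogues 9 to 13, where cluster 10 of the same library took 37.2% and 17.1%. Hoxb9 gave no UMI in cluster 30 and 93.8 CPM in cluster 10.

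The liver mesenchyme was rich in anterior genes. The hepatic stellate or septum transversum-like cluster 13 took 93.9% and 82.97% of its Hox UMIs from paralogues 1 to 5 at the 2 stages. At E10.5 it led with Hoxa4 (169 CPM), Hoxa5 (150 CPM) and Hoxb4 (143 CPM), and at E11.5 with Hoxb4 (101 CPM) and Hoxb2 (92.8 CPM). Paralogues 9 to 13 gave 0.709% and 2.15%, against 8.03% and 14.8% in all cells.

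**Figure D3:**
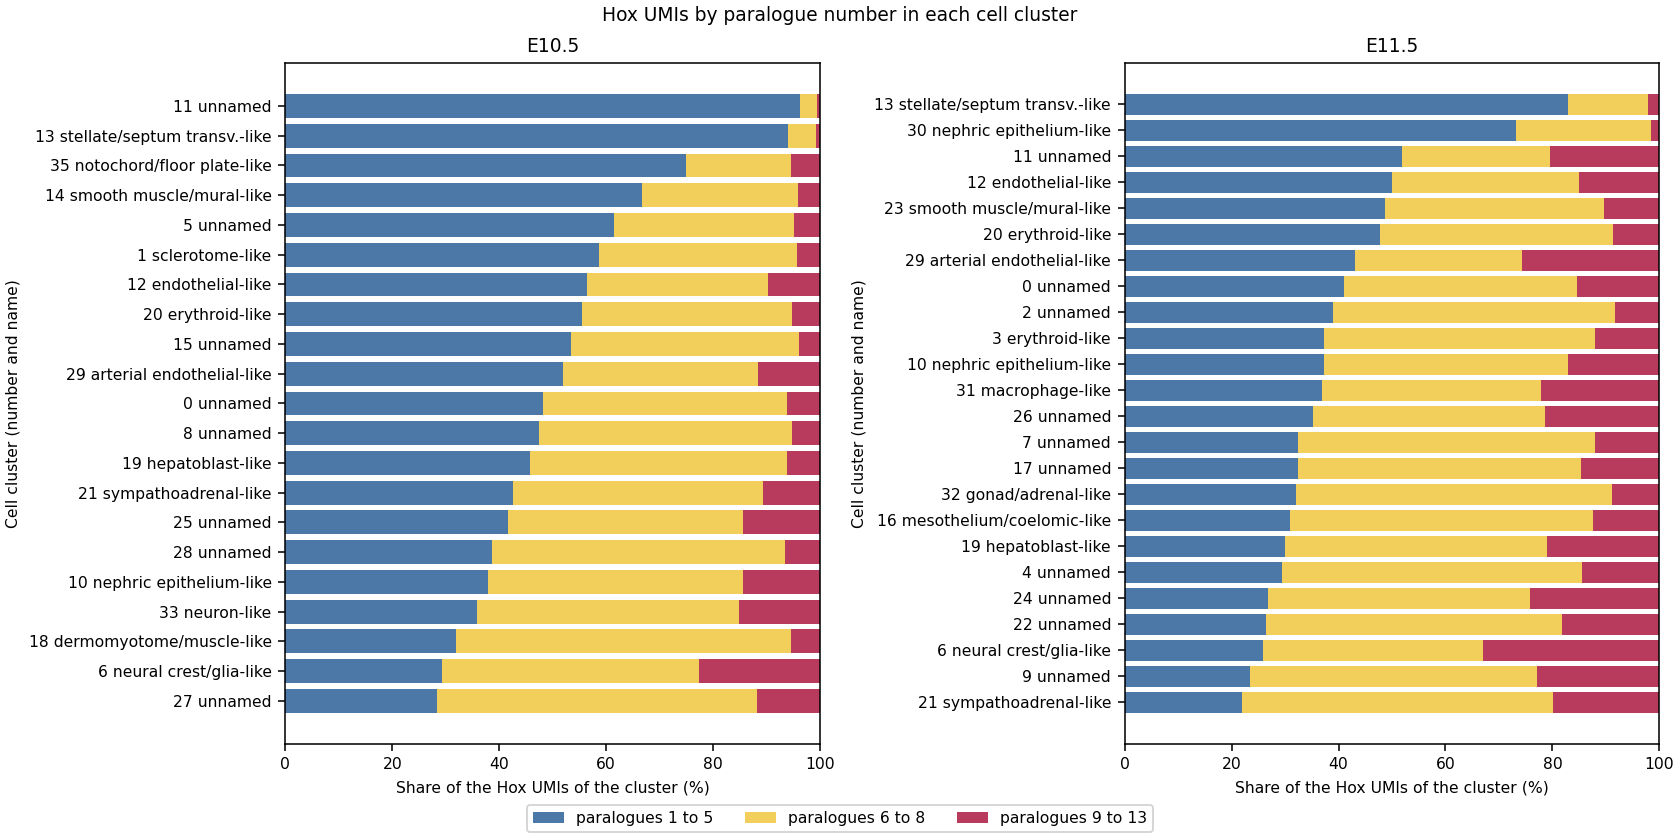
Share of the Hox UMIs of each cell cluster (x axis, %) from paralogues 1 to 5, 6 to 8 and 9 to 13 (colours) at E10.5 and E11.5, with clusters ordered by the share from paralogues 1 to 5. Clusters 11 and 13 lie at the anterior end at E10.5 with 96.3% and 93.9%, and the sympathoadrenal-like cluster 21 lies at the other end at E11.5 with 22.0%.

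The unnamed cluster 11, led by Myl7, Lhx9 and Upk3b, mixed opposite Hox patterns. At E10.5 its 101 cells took 96.3% of their Hox UMIs from paralogues 1 to 5. At E11.5 its 455 cells had the highest Hoxd9 level of that library, 132 CPM. Clustered again, without the Hox genes as before, the E11.5 cells split. In subclusters 0, 5, 6 and 8 of cluster 11 Hoxd9 stood at 159, 324, 261 and 203 CPM, HoxD gave 35.5% to 55.0% of the Hox UMIs and paralogues 9 to 13 gave 29.8% to 46.2%. In subclusters 3 and 4 paralogues 1 to 5 gave 86.4% and 93.9%, led by Hoxa5 (522 CPM) and Hoxa4 (250 CPM). The leading genes of the subclusters rich in Hoxd9 included Amhr2 and Emx2 in subcluster 0, Cenpf and Etv2 in 5, Kctd14 and Amhr2 in 6 and Sparcl1 and Etv2 in 8. Those of subcluster 3 included Twist1 and Sox9, and those of 4 Mgp and Tbx18. At E10.5 the highest Hoxd9 level was that of cluster 27, 79.5 CPM, whose leading genes included Lhx9, Tcf21, Nr5a1 and Wt1.

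In endothelial cells HoxB gave the largest share of the Hox UMIs at E10.5 and HoxA at E11.5. The endothelial-like cluster 12 stood at 507 and 472 CPM at E10.5 and E11.5, with 41.3% and 46.1% from HoxA and 44.4% and 38.5% from HoxB, and led with Hoxa5 (72.7 and 79.6 CPM). The arterial endothelial-like cluster 29, which had Gja4 and Gja5 as its leading genes, stood at 570 and 567 CPM, with 31.1% and 47.1% from HoxA and 48.4% and 39.98% from HoxB. Hoxa9 was its leading member at E11.5 with 81.9 CPM, against 43.5 CPM in cluster 12. Hoxa10 was highest there at both stages, 10.1 CPM (7.06 to 14.1) and 21.3 CPM, while the other clusters with at least 50 cells were at or below 3.95 CPM at E10.5 and 20.1 CPM at E11.5. The cells were few, 176 and 68, and these are 35 and 31 UMIs of Hoxa10.

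To compare shares of cells at 1 depth, each cell was thinned to 5000 UMIs. Hoxa9 was then seen in 10.6% of arterial endothelial-like cells at E10.5 (6.40 to 16.2) and in 31.8% at E11.5 (20.9 to 44.4). In the erythroid-like cluster 20 it was seen in 0.459% and 0%, where 167 cells allow up to 1.80%, and in the hepatoblast-like cluster 19 in 0% of 83 cells, which allows up to 3.61%, and in 2.27%. Without thinning the shares in arterial cells were 30.1% and 60.3%. Clusters 19 and 20 had Hox totals below 400 CPM at both stages, so low shares there do not set arterial cells apart. Among clusters with at least 50 cells, the CPM of Hoxa9 was highest in the nephric epithelium-like cluster 10, at 50.3 and 118 CPM.

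Small groups of cells within a blood cell cluster took most of their Hox RNA from HoxA. Cluster 26, led by Pf4, Ppbp, S100a8 and Mpo, was clustered again. Its haemogenic or cluster-like subcluster 8 was named from 4 of 9 markers, set against the other cells of cluster 26. The leading genes of this subcluster included Cdh5, Ramp2, Plvap and Col4a1. With 14 cells at E10.5, it had a Hox total of 374 CPM, of which 73.6% was HoxA. Hoxa9 alone stood at 153 CPM (123 to 189), against at most 50.3 CPM in the clusters of that library with at least 50 cells. The unnamed subcluster 2, with 31 cells at E11.5 and Ifitm1, Adgrl4, Cd69 and Cd27 among its leading genes, had 229 CPM, of which 83.9% was HoxA. It led with Hoxa9 (102 CPM, 80.3 to 128) and Hoxa7 (59.9 CPM). Paralogues 9 to 13 gave 46.2% and 48.8% of the Hox UMIs in these subclusters. Other subclusters had far less Hox RNA: the granulocyte or monocyte progenitor-like subcluster 3 had 46.7 CPM, the Klf1-led subcluster 0 had 20.3 CPM and the megakaryocyte-like subcluster 6 had 12.6 CPM. Subcluster 4 reached 527 CPM with Hoxc8 in the lead, but 69.2% of its cells were in the 8% of barcodes with the highest doublet score and its leading genes were Afp, Meg3 and Col1a2.

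How evenly the Hox UMIs lay over the cells of a cluster differed with the level. In the 23 clusters of a library with more than 1000 CPM, the 10% of cells with the most Hox UMIs held 19.4% to 41.1% of them. In the 8 with less than 400 CPM they held 49.8% to 86.2%. In the hepatoblast-like cluster 19 this share was 85.0% at E10.5 and 82.4% at E11.5, in the erythroid-like cluster 20 it was 70.9% and 86.2%, and in the erythroid-like cluster 3 and the macrophage-like cluster 31 of E11.5 it was 85.0% and 76.0%. The median cell of clusters 3, 19 and 31 had no Hox UMI.

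Markers of mesenchyme, a list of 8 genes, moved with the Hox UMIs in those low clusters. Their summed level was 135 CPM in hepatoblast-like cells with a Hox UMI and 8.28 CPM in those without at E10.5, when Pdgfra, Col1a1 and Dcn were at 0 in the latter. At E11.5 it was 211 and 17.4 CPM, with all 8 genes seen in both. In the erythroid-like cluster 20 it was 455 and 15.03 CPM at E10.5 and 949 and 76.7 CPM at E11.5, in cluster 3 it was 270 and 18.7 CPM, and in the macrophage-like cluster 31 it was 341 and 13.95 CPM, with Pdgfra and Dcn at 0 in cells without a Hox UMI. Without the 8% of barcodes with the highest doublet score, the Hox total was 152 and 24.6 CPM in cluster 19, 136 and 152 CPM in cluster 20, 17.5 CPM in cluster 3 and 42.3 CPM in cluster 31. The part of mesenchymal RNA in the Hox values of these clusters was not tested.

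**Figure D4:**
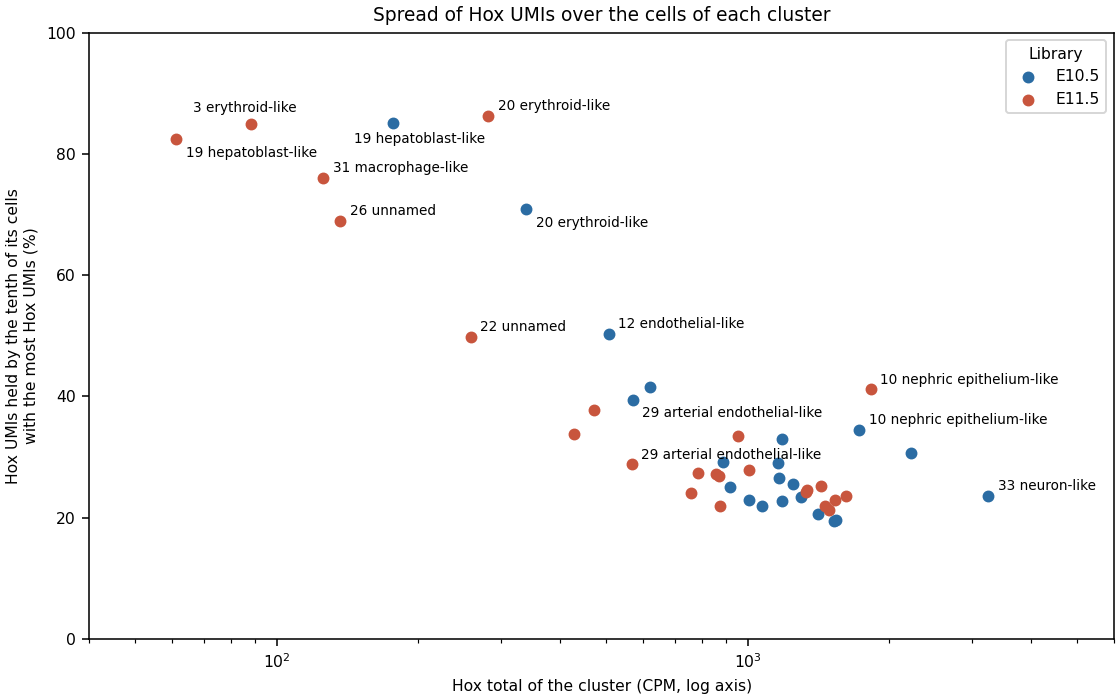
Share of the Hox UMIs of a cluster that its 10% of cells with the most Hox UMIs held (y axis, %) against its Hox total (x axis, CPM on a log axis), with 1 point per cluster and library. Hepatoblast-like, erythroid-like and macrophage-like clusters lie at the upper left, between 70.9% and 86.2%, and clusters above 1000 CPM lie between 19.4% and 41.1%.

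The last comparison asked whether the difference between the stages was also seen within a cell cluster, in the 8 clusters with a name and at least 50 cells in each library. Paralogues 9 to 13 gave a larger share of the Hox UMIs at E11.5 in 8 of the 8. The share went from 22.6% to 32.9% in the neural crest or glia-like cluster 6, from 14.4% to 17.1% in the nephric epithelium-like cluster 10, from 9.77% to 14.98% in the endothelial-like cluster 12 and from 11.55% to 25.6% in the arterial endothelial-like cluster 29. In the sympathoadrenal-like cluster 21 it went from 10.6% to 19.9%, in the stellate-like cluster 13 from 0.709% to 2.15%, in the hepatoblast-like cluster 19 from 6.19% to 21.0% and in the erythroid-like cluster 20 from 5.32% to 8.71%. A share also rises where the other members are lower, so the levels are given beside it. The summed level of paralogues 9 to 13 was 293 and 285 CPM in cluster 6 (log2 ratio -0.04, -0.13 to 0.05). Its interval included 0 in cluster 13 as well (0.55, -0.25 to 1.37), in cluster 19 (0.23, -0.30 to 0.80) and in cluster 20 (0.45, -0.22 to 1.08). It lay above 0 in cluster 10 (0.33, 0.20 to 0.46), cluster 12 (0.51, 0.30 to 0.73), cluster 21 (0.70, 0.52 to 0.89) and cluster 29 (1.14, 0.87 to 1.42). Cluster 20 turned to a lower share at E11.5 without the barcodes of highest doublet score (by -1.97 points) and in the thinned cells (-2.27 points).

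The Hox total was lower at E11.5 in 7 of the 8, by amounts that differed. It was 1298 and 867 CPM in cluster 6 (log2 ratio -0.58), 887 and 428 CPM in cluster 13 (-1.05) and 177 and 61.3 CPM in cluster 19 (-1.53). In clusters 12, 20, 21 and 29 the log2 ratios were nearer to 0, at -0.10, -0.26, -0.20 and -0.01, and in cluster 10 it was 0.08. Without the barcodes of highest doublet score 4 of the 8 were lower, since clusters 12, 20 and 29 had ratios at or above 0 (0.01, 0.16 and 0.22). HoxB was lower in 7 of the 8, from -0.28 in cluster 29 to -2.58 in cluster 19, and at 0.09 in cluster 10. HoxC, which held its level in all cells, was lower in 6 of the 8, and was higher in cluster 21 (239 and 447 CPM) and in cluster 20 (107 and 115 CPM).

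**Figure D5:**
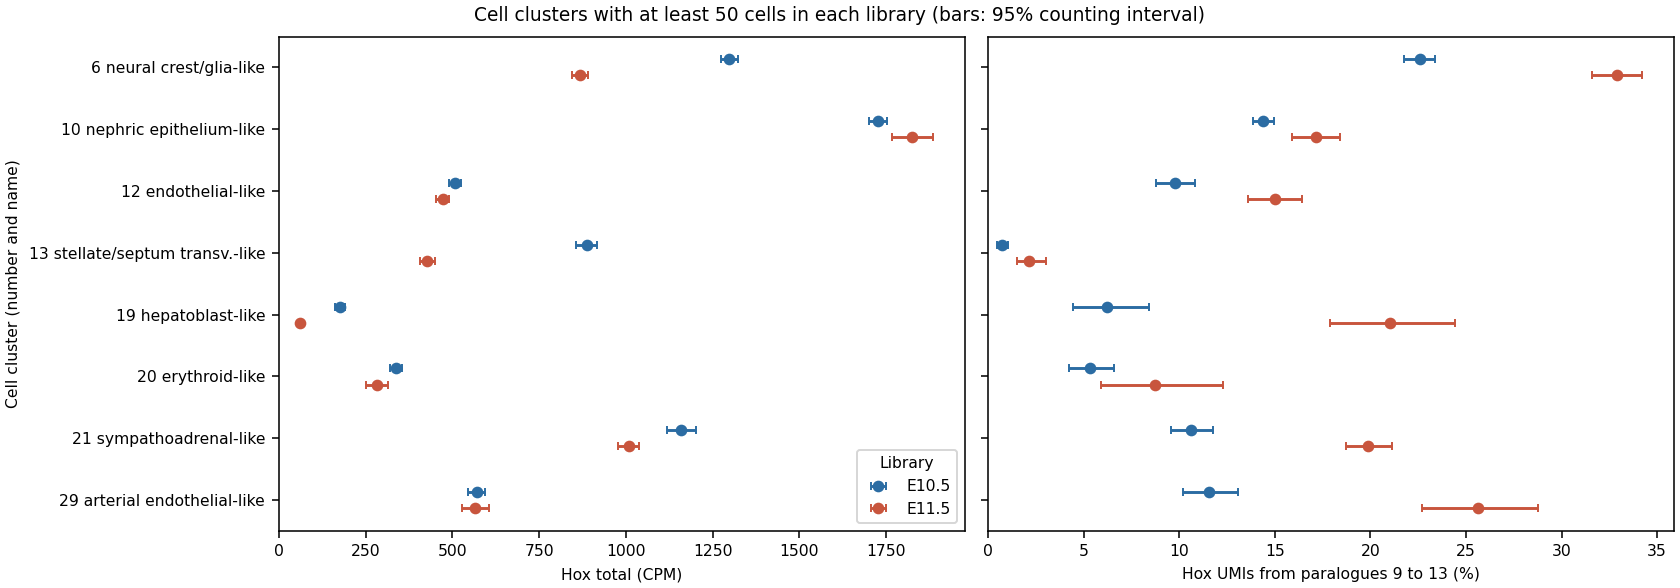
Hox total (left, CPM) and share of the Hox UMIs from paralogues 9 to 13 (right, %) in the 8 cell clusters compared between E10.5 and E11.5, with bars for the 95% counting interval. The E11.5 points lie to the right of the E10.5 points in all 8 rows of the right panel, and to the left in 7 of 8 rows of the left panel, where cluster 29 differs by less than its interval.

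In neural crest derivatives the posterior genes did not all lie on the same side. In the neural crest or glia-like cluster 6, 4 of 25 measured members were at least 2-fold higher (6.26% of all genes) and 4 lower (4.42%). Hoxd9 stood out, at 2.11 and 24.97 CPM (log2 ratio 3.57, 2.84 to 4.39), and Hoxa9, Hoxd8 and Hoxa6 were higher too. Hoxb9, the most abundant posterior gene of the cluster, was 230 and 186 CPM (-0.31, -0.42 to -0.20). On the lower side were Hoxb8, at 208 and 93.5 CPM, Hoxc4, Hoxc6 and Hoxd3. In the sympathoadrenal-like cluster 21, whose cells make catecholamines, 5 of 22 were higher (10.3%) and 9 lower (3.74%). Hoxc9 was 16.9 and 113 CPM there (2.74, 2.30 to 3.22), Hoxc8 45.5 and 192 CPM (2.07), Hoxd8 3.38 and 17.4 CPM and Hoxa9 7.52 and 24.97 CPM, while Hoxb5 (80.8 and 23.8 CPM), Hoxb2, Hoxb3 and Hoxc5 were lower. In cluster 6 the log2 ratios of Hoxc8 and Hoxc9 were -0.95 and -0.02. The difference between the clusters was not tested.

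In nephric epithelium most members were within 2-fold. In cluster 10, 2 of 28 were at least 2-fold higher (11.7% of all genes) and 3 lower (4.91%). Hoxa10 was 3.95 and 20.1 CPM (log2 ratio 2.34, 1.66 to 3.03), and Hoxa9 50.3 and 118 CPM (1.23). The lower ones included Hoxa2, at 13.3 and 4.01 CPM, and Hoxb1. In the 71 cells of E11.5 Hoxa2 had 8 UMIs and Hoxb1 had 2. The ratio of Hoxa10 was 0.62 when the clusters were drawn more finely, at a Leiden resolution of 2.0.

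Endothelial cells differed little in total and more in single members. In the endothelial-like cluster 12, 2 of 23 were at least 2-fold higher (6.17% of all genes), namely Hoxd9 (2.40 and 8.18 CPM) and Hoxc9 (1.05 and 4.09 CPM), and 3 lower (2.48%), namely Hoxc4, Hoxc5 and Hoxb3. In the arterial endothelial-like cluster 29, 2 of 21 were higher (3.56%) and 4 lower (4.68%). Hoxa9 was 30.1 and 81.9 CPM (1.44, 1.05 to 1.84) and Hoxa10 10.1 and 21.3 CPM (1.07, 0.33 to 1.81). HoxC genes went the other way, with Hoxc6 at 32.5 and 5.51 CPM (-2.56), Hoxc8 at 30.7 and 8.26 CPM (-1.89) and Hoxc4 at 23.8 and 9.64 CPM, and Hoxa2 had 25 and 1 UMIs. The Hox total of cluster 29 at E10.5 was 446 CPM without the barcodes of highest doublet score, against 570 CPM with them.

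In liver cells many members were lower at E11.5. In the stellate-like cluster 13, 11 of 21 were at least 2-fold lower (4.90% of all genes) and 2 higher (5.66%). Hoxb1 stood at 13.3 and 0.576 CPM (53 and 2 UMIs, log2 ratio -4.53, -7.61 to -2.61), Hoxa5 at 150 and 27.1 CPM, Hoxb5 at 33.2 and 4.90 CPM and Hoxa4 at 169 and 38.3 CPM, so the genes that led this cluster at E10.5 were among those that differed most. The higher ones were Hoxc8, at 9.55 and 23.3 CPM, and Hoxc9. In the hepatoblast-like cluster 19, 16 of 19 were lower (5.53%) and 1 higher (8.40%). Hoxb8 was 17.5 and 0.693 CPM and Hoxb7, Hoxb5 and Hoxa5 were 6.61-, 7.47- and 4.31-fold lower, while Hoxc9 had 4 and 41 UMIs, or 1.15 and 4.06 CPM. These values come from the cluster in which few cells held most Hox UMIs, and as a mean over cells its log2 ratio of the total was -0.10 in place of -1.53.

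The erythroid-like cluster 20 had 6 of 18 members at least 2-fold lower (13% of all genes) and 1 higher (7.87%). Hoxb9 had 51 UMIs in the first library and 0 in the second, which makes it at least 4.70-fold lower, and Hoxa4, Hoxb8 and Hoxb5 were 3.09-, 2.49- and 2.86-fold lower. Hoxd9 was 2.10 and 10.1 CPM, from 9 and 12 UMIs. In this cluster too few cells held most Hox UMIs, with 70.9% and 86.2% of them in 10% of the cells. Its Hox total was 338 and 281 CPM, but 136 and 152 CPM without the barcodes of highest doublet score, so it was then not lower at E11.5.

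Over the 8 clusters some members lay on the same side throughout and others were split. Among the split ones, Hoxa5 and Hoxa7 were above 0 in 4 of 8 clusters, Hoxa3 and Hoxb7 in 3 of 8 and Hoxc8 in 5 of 8. Hoxa9 was above 0 in 6 of the 6 clusters where it was measured and at least 2-fold higher in 4, Hoxd9 in 5 of 5 and 4, and Hoxa10 in 3 of 3 and 2. Hoxc9 was above 0 in 4 of 6, and at least 2-fold higher in those 4. Hoxa4, Hoxb2 and Hoxc4 were above 0 in none of 8 clusters and Hoxa2 in none of 7, with medians of -1.23, -0.61, -1.32 and -1.48. The clusters share their libraries, so these counts are not repeated measurements.

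Members that lie next to each other in a complex had the most similar levels over cell clusters. For 23 members with a mean of at least 5 CPM, Pearson's r of log2(CPM + 5) had a median of 0.79 over 18 neighbouring pairs at E10.5 (21 clusters) and of 0.83 over 19 pairs at E11.5 (24 clusters). Pairs with the same paralogue number in different complexes had medians of 0.55 and 0.59, and all other pairs 0.34 and 0.53. The most similar pair was Hoxb8 with Hoxb9 at E10.5 (0.97) and Hoxb7 with Hoxb8 at E11.5 (0.96). All pairs of a stage share 1 library, its depth and its spread of Hox totals over clusters, so the values are descriptions.

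Genes that work with the Hox proteins were taken from lists. The TALE proteins, homeodomain partners that bind DNA together with Hox proteins, were all measured. In all cells 0 of 9 were at least 2-fold higher (16.1% of all genes) and 1 lower (4.51%), Meis3 (49.6 and 22.8 CPM). Their median log2 ratio was -0.25. Within the 8 clusters none was at least 2-fold higher and 1 or 2 were lower in each, and the median was between -0.12 in cluster 21 and -0.64 in cluster 13. It lay below that of the Hox members in cluster 29 (-0.49 and -0.05), cluster 10 (-0.39 and -0.03) and cluster 12 (-0.32 and -0.25). Meis1 stood at 157 and 158 CPM and Meis2 at 377 and 318 CPM. Of 17 chromatin regulators of the Hox complexes, among them the Polycomb gene Ezh2 (268 and 223 CPM) and Kmt2a (74.3 and 94.1 CPM), none passed 2-fold in either direction, and Suz12 came nearest with a log2 ratio of 0.67.

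Of 14 upstream regulators, 10 were measured, and 2 were at least 2-fold lower, where 4.51% of all genes were. These were Fgf8, a growth factor of the tail bud, at 6.65 and 0.273 CPM, and T, a mesoderm and notochord gene, at 6.08 and 0.0818 CPM. The notochord or floor plate-like cluster 35, which had T among its leading genes, held 0 cells at E11.5. The genes that make and respond to retinoic acid were within 2-fold, with Aldh1a2 at 120 and 149 CPM and Rarb at 26.2 and 27.7 CPM. Cdx2 and Cdx4, which activate Hox genes in the tail bud, gave 10 and 8 and 1 and 0 UMIs.

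Noncoding RNAs of the complexes were mostly lower in all cells. Of 11 in the tables, 9 were measured, of which 6 were at least 2-fold lower (4.51% of all genes) and 1 higher (16.1%). Hoxb5os was 31.9 and 5.54 CPM (log2 ratio -2.53) beside Hoxb5 (-1.81), and Hotairm1 was 33.8 and 11.9 CPM (-1.502). The higher one was Gm53, at 1.27 and 4.02 CPM. Within clusters they did not lie on the same side throughout: 4 of 7 were above 0 in cluster 21 and 5 of 8 in cluster 29, with medians of 0.24 and 0.18. Hotair and Hottip, which lie at the 5′ ends of HoxC and HoxA, gave no UMI. Since some of these RNAs overlap Hox exons on the opposite strand, their counts and those of the Hox genes cannot be told apart where strand was not used.

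In cells thinned to 5000 UMIs, the median number of different Hox genes seen in a cell was 4 at E10.5 (6852 cells, 1853 shallower ones left out) and 3 at E11.5 (8189 cells, 1567 left out). It was 8 in the neuron-like cluster 33, 7 in cluster 25 and 6 and 5 in the nephric cluster 10, and 0 in the hepatoblast-like, erythroid-like and macrophage-like clusters. A gene of groups 9 to 13 was seen in 26.6% and 32.96% of cells and a gene of groups 10 to 13 in 0.365% and 4.12%. In the hepatoblast-like cluster the shares for groups 9 to 13 were 2.41% and 4.17%.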

How the data were processed

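Single-cell 3′ RNA-seq was available as 1 library for each of 2 stages. The authors deposited UMI counts per gene and barcode, made with Cell Ranger 5.0.0 against mm10 (GRCm38), per the submitters' processing notes; filters before deposit are not given in the sources used here, and the lowest barcode had 500 UMIs. Barcodes with at least 1000 UMIs, 500 genes and at most 10% mitochondrial UMIs were kept. The 2 feature rows of Hoxd4 were summed. Scrublet's automatic threshold marked 0% of barcodes and so did not work; all were kept, and an alternative removed the 8% with the highest score (696 and 780). Cells were clustered with scanpy 1.11.5 and leidenalg 0.10.2 (2000 variable genes per library, 40 components, 15 neighbours, resolution 1.0), with Hox, haemoglobin and mitochondrial genes left out. A cluster was named where at least 3 markers of a list were 3-fold above the other clusters at 20 CPM or more and its 10 leading genes did not go against it. Subclusters were set against the other cells of their own cluster only. Names were rebuilt from markers and are not the authors'.

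CPM carries exact Poisson intervals, shares Clopper-Pearson intervals and ratios exact conditional intervals (95%, scipy 1.17.1). Only the ratio intervals were run on simulated data. Those counts were drawn as Poisson, the model that the interval assumes, so the run cannot tell how the intervals hold where few cells carry most UMIs. UMIs are counted molecules of 1 library, so intervals cover counting error only. A member counted as higher or lower at 2-fold with at least 20 UMIs in both libraries together; a count of 0 was set to a floor of 3 counts over the group. In each cluster up to 4 members each way that passed were named. They were ranked by the interval bound nearest to 0, not by the ratio itself. The members, the 29 marker lists and the 5 gene lists were chosen with earlier results of these data known. The second clustering of clusters 11 and 26, the summary of Hox UMIs over cells, the mesenchyme comparison and the 4 printed promoters were chosen after values were seen. Alternatives changed the clustering, the mitochondrial limit, the doublet filter, the CPM base, the depth and the centring. Some single-gene values are not reported here; the genes remain in the sums and counts.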

Additional observations from a re-analysis of the deposited data

How the results depend on the processing

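No paired analysis was possible because each stage has 1 library; for the same reason no library could be left out, and differences between embryos or library preparations cannot be told apart from stage. The log2 ratio of the Hox total over all cells (-0.53) was -0.57 with at most 5% mitochondrial UMIs, -0.51 without the 8% of barcodes with the highest doublet score, -0.35 as a mean over cells, -0.33 in thinned cells and -0.69 with the median gene set to 0. The share of paralogues 9 to 13 was 6.73 points higher at E11.5, and 6.38 points with at most 5% mitochondrial UMIs. The number of clusters with a lower total, 7 of 8, was 4 without the barcodes of highest doublet score. The log2 ratio of the highest over the lowest cluster at E10.5 (4.198) was 3.81 at a Leiden resolution of 0.5, 4.51 without those barcodes, 5.10 as a mean over cells and 4.67 in thinned cells; that at E11.5 (4.90) was 6.23, 4.29 and 5.33 under the last 3 of these. The sign turned for Hoxa7 in all cells as a mean over cells (0.0734) and thinned (0.11), for the total of cluster 10 (0.08) at a resolution of 2.0 (-0.14), thinned (-0.0408) and centred (-0.0618), for the total of cluster 12 (-0.10) without the barcodes of highest doublet score (0.0108) and thinned (0.0072), and for the total of cluster 20 (-0.26) without them (0.16). The total of cluster 29 (-0.01, -0.13 to 0.11) turned as well. Without the barcodes of highest doublet score it was 446 CPM at E10.5 and 521 CPM at E11.5. The points of paralogues 9 to 13 in cluster 20 (3.39) turned without them (-1.97) and thinned (-2.27). The cause was not tested. Over the alternatives, 4 to 7 members were at least 2-fold higher in all cells and 13 to 16 lower. The shares of all genes were not computed for these alternatives. All 295 alternatives for 48 named members in clusters kept their sign. At a resolution of 0.5, however, clusters 12 and 29 were matched to the same cluster of 789 cells, with overlaps of 68.8% and 30.9% (Jaccard). Cluster 33 was matched to 451 cells at that resolution, with an overlap of 26.4%. Those values therefore describe larger groups of cells than the named clusters. A resolution of 2.0 was not run for cluster 19, whose matched cluster had under 10 cells of 1 library. Depth limits the small clusters most: subcluster 8 of cluster 26 has 14 cells.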
